A study of Mus musculus with 4 samples.

Results

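The genes described here are 44 genes of mitosis and the mitotic spindle, taken by name as genes of this pathway with earlier results of these data known, out of 48587 rows of a table of counts per gene. All 44 were found by their symbol, and all 44 were among the 18916 genes that passed the filter on low counts. The libraries hold mRNA of primary VSMCs that were grown out of the descending aorta of C57BL/6J mice. The cells were transduced with lentivirus that expressed a hairpin against *Mettl14* (sh*Mettl14*) or a nontargeting hairpin against a plant microRNA (shCtrl). *Mettl14* encodes a subunit of the methyltransferase that places N6-methyladenosine on mRNA. Each group has 2 libraries, which carry the letters A and B, and every culture was transduced and grown with serum, the controls included. The methods mention neither a selection of transduced cells nor a separate animal for each letter, so the p-values below measure only the spread between these libraries, which may be technical. The question was whether the mRNAs of mitosis differed between sh*Mettl14* and shCtrl, within each letter and across all 4 libraries.

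Mitosis is driven by Cdk1 bound to A- and B-type cyclins, and by the Aurora and Polo kinases. Motor proteins build the spindle, kinetochores attach chromosomes to it, and a checkpoint holds back the anaphase-promoting complex until every chromosome is attached. Most of the mRNAs accumulate only in cells that approach or pass through division, so their level in a culture follows the share of cycling cells. VSMCs of a healthy artery rarely divide, and they re-enter the cell cycle in culture and after vessel injury. In a culture measured in bulk, fewer dividing cells and less RNA per dividing cell cannot be told apart.

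*Mettl14* was at 18 and 19.9 CPM (counts scaled to the size of the library by the TMM method) in shCtrl A and B and at 4.6 and 4.37 CPM in sh*Mettl14* A and B. Under sh*Mettl14* it was at 23.6% of the shCtrl level, and the groups did not overlap. The log2 fold change, −2.08 with a standard error of 0.25, had an adjusted p of 1 from edgeR, the main test here, and of 3e-07 from DESeq2. The libraries held 114343653 to 124815868 counts in all. A count of 0 allows up to 3, or 0.0278 CPM at most, which covers counting error only. The shCtrl B library had a count for 21736 genes, against 24570 to 25268 in the other libraries, and 3.55% of its counts lay in mitochondrial genes, against 1.72% to 2.44%. Markers of VSMCs were high, with the 8 genes of that list summing to 8169 and 6645 CPM in shCtrl A and B and to 5194 and 5498 CPM in sh*Mettl14* A and B. Levels in this list ran from 75 CPM for the myosin gene *Myh11* in sh*Mettl14* B to 3550 CPM for *Acta2*, smooth muscle actin, in shCtrl A. Some endothelial markers were high as well, with *Emcn* at 484 to 2100 CPM, *Pecam1* at 477 to 820 CPM and *Cdh5* at 508 to 818 CPM, although the methods describe scraping the endothelium away. Others were low, with *Kdr*, *Tek* and *Vwf* between 5.04 and 18.9 CPM. The 8 endothelial markers summed to 1919 and 4067 CPM in shCtrl A and B and to 1811 and 2522 CPM in sh*Mettl14* A and B. The adventitial fibroblast list summed to 737 to 917 CPM, from 0 counts of *Lum* in shCtrl B to 505 CPM for *Cd34* in sh*Mettl14* B. Most of that sum lay in *Cd34*, at 414 CPM or more, *Ly6a*, at 195 to 282 CPM, and *Dcn*, at 68.3 to 160 CPM. In contrast, *Pi16*, *Dpt*, *Lum* and *Clec3b* were at 1.92 CPM at most. The leukocyte list summed to 11.1 to 15.1 CPM, with *Lyz2* the highest at 5.50 CPM in shCtrl A and *Adgre1*, *Itgam* and *Cd3e*, each with 0 counts in at least 1 library, too low to be tested.

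None of the 44 genes differed between the hairpins by edgeR's quasi-likelihood test. The count with an adjusted p under 0.05 was 0, against 0% of all genes tested. It was also 0 by DESeq2's Wald test, which called 0.0172% of all genes. *Mettl14* was among the genes DESeq2 called. Since the edgeR fit did not call *Mettl14*, its count of 0 does not show that the members were unchanged. At an unadjusted p under 0.05, 0 members were lower, against 1.01% of all genes, and 0 were higher, against 0.656%. The smallest unadjusted p was 0.079, for *Cdca3*. The fitted log2 fold change of sh*Mettl14* over shCtrl was below 0 for 31 members and above 0 for 13, with a median of −0.11 beside 0.0094 over all genes. In letter A the median log2 ratio was −0.10, and in letter B −0.12. The summed level of the members was 977 CPM in shCtrl A and 916 CPM in sh*Mettl14* A, and 1636 CPM in shCtrl B and 1493 CPM in sh*Mettl14* B. The sum under sh*Mettl14* was thus 93.8% of that under shCtrl within A and 91.3% within B, whereas the letters differed far more. All 8 VSMC markers had a fold change below 0 in the same fit, with a median of −0.51, and 7 were lower in both letters. *Acta2*, at −0.58 (standard error 0.21, unadjusted edgeR p of 0.038, adjusted p of 1), was the VSMC marker that passed an unadjusted 0.05. Of 8 endothelial markers 7 were below 0 (median −0.21), as were 5 of 5 leukocyte markers tested (median −0.21). The letters differed here. For endothelial markers the median log2 ratio was 0.03 in A and −0.42 in B, and 3 of 8 were lower in both. For leukocyte markers it was −0.40 in A and 0.09 in B, and 2 of 5 were lower in both. Of 8 adventitial fibroblast markers 3 were below 0 and 5 above (median 0.17). Those above included *Lum*, with 0 to 49 counts in a library, and *Dpt*, with 17 to 58. The part of these shifts in the members' levels was not tested. For a single value, the smallest two-sided p of an exact permutation test is 0.333 with 2 libraries a group.

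The precision was low. The 95% interval of the log2 fold change held 0 for 44 of 44 members, with bounds from −1.88 for *Mki67* to 1.37 for *Kif11*, and standard errors ran from 0.20 for *Bub3* to 0.59 for *Mki67*. A fit with 1 library left out sets 1 letter of a group against both letters of the other, so it takes in part of the difference between letters described below. The median over members in such fits was −0.42 without shCtrl A, 0.28 without shCtrl B, 0.18 without sh*Mettl14* A and −0.51 without sh*Mettl14* B. In those 4 fits 38 members took the opposite sign at least once, and the 6 others were *Cdk1*, *Bub3*, *Cdc20*, *Ube2c*, *Cdca3* and *Cenpa*. *Cdc25c*, *Cenpe*, *Prc1* and *Ect2*, whose fold changes were near 0, also changed sign in at least 1 of the other alternatives.

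Within the letters, 19 members (43.2%) were lower with sh*Mettl14* in both A and B, against 27.7% of all genes, and 4 (9.09%) were higher in both, against 30.0%. The 4 were *Ttk*, *Bub1*, *Bub1b* and *Ect2*. The other members went opposite ways, 12 of them lower in A and higher in B and 9 higher in A and lower in B. The 19 lower in both letters became 20 with RLE scaling. They became 17 with upper-quartile scaling and with at least 10 counts required in every library. Both sh*Mettl14* libraries lay below both shCtrl libraries for 3 members (6.82%), *Bub3*, *Cdc20* and *Cdca3*, against 13.3% of all genes. That count was 2 with at least 10 counts required in every library and 1 with upper-quartile scaling. Both lay above for 0 members, against 14.7%. The groups overlapped for the other 41 members.

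**Figure D1:**
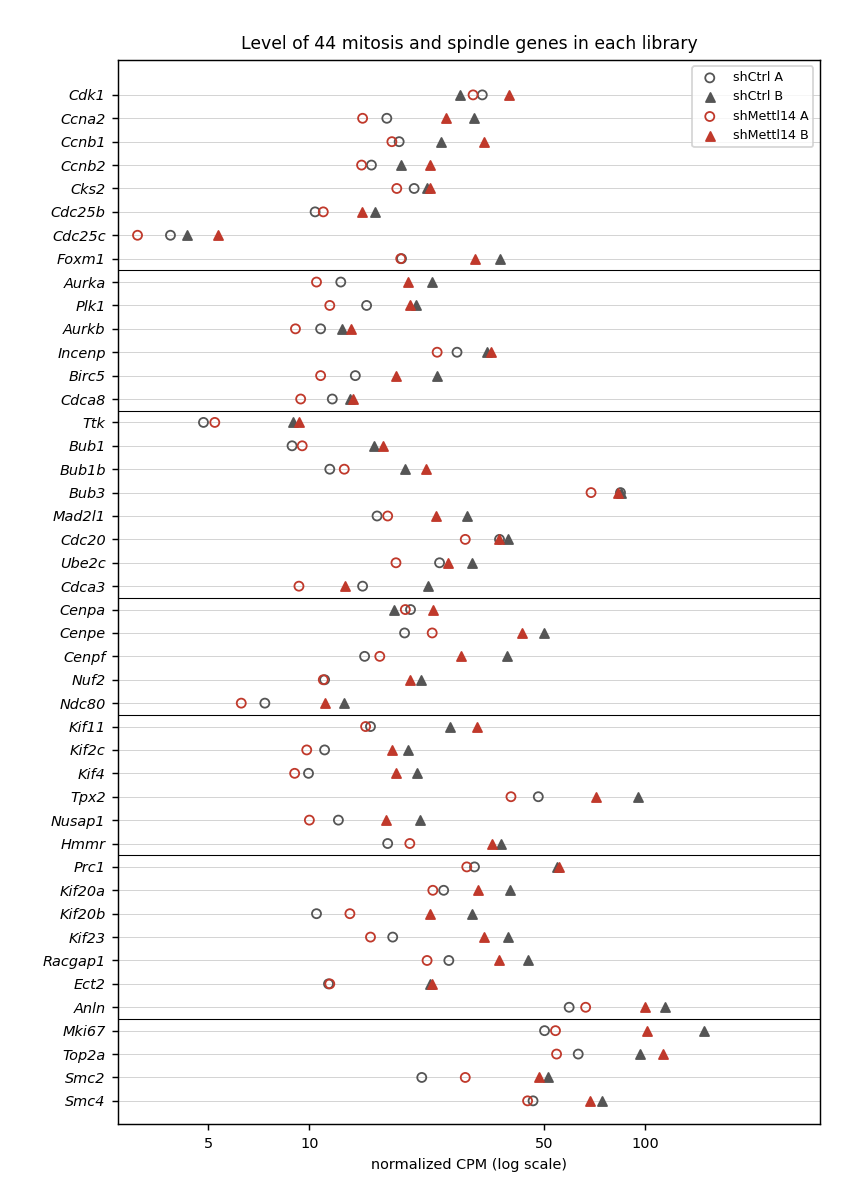
Normalized CPM (log scale) of the 44 mitosis and spindle genes in each library, ordered by role; circles are letter A, triangles letter B, grey shCtrl and red sh*Mettl14*. The triangles lie to the right of the circles for 39 members, while red and grey symbols overlap for 41.

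**Figure D2:**
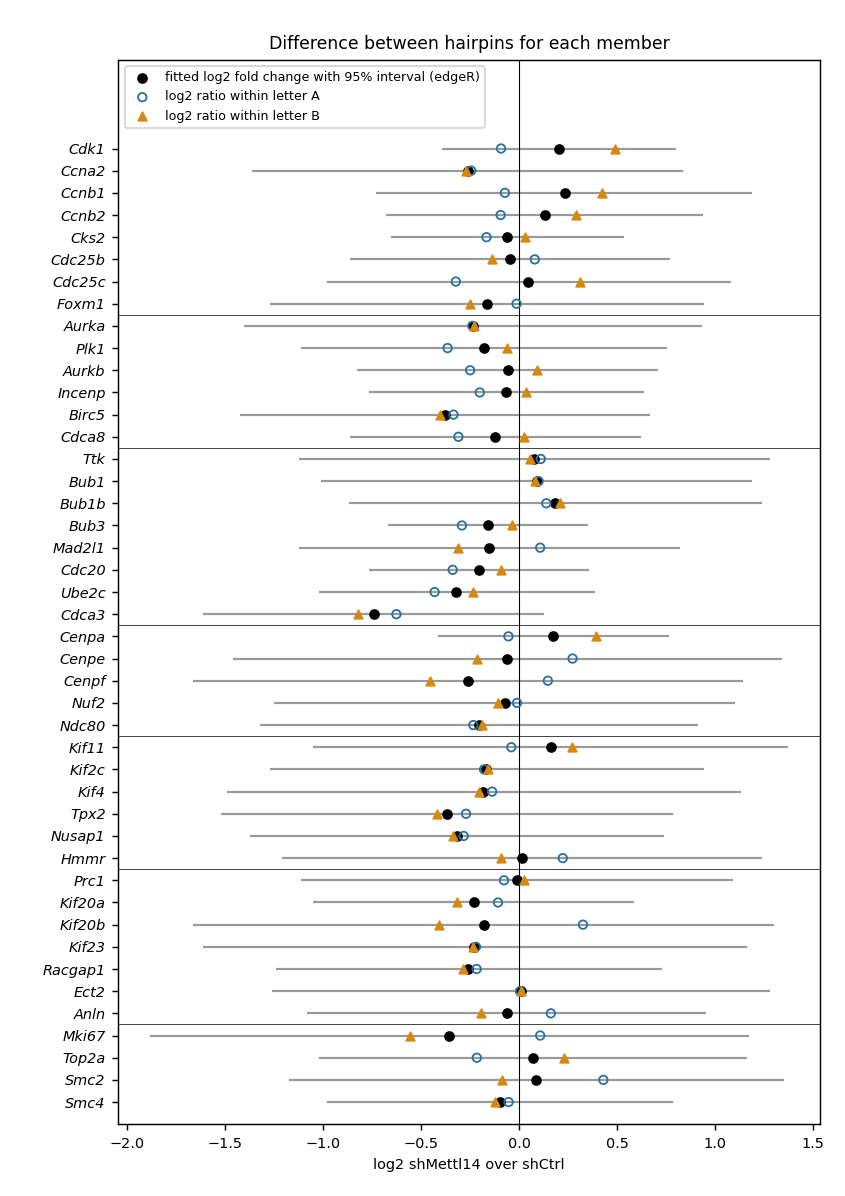
Log2 ratio of sh*Mettl14* over shCtrl for each member, with the edgeR fold change and its 95% interval in black and grey and the ratios within letter A (circles) and letter B (triangles). All 44 intervals cross 0, and *Cdca3* lies lowest, with ratios of −0.63 in A and −0.82 in B.

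The promoters of many mitosis genes share a short element, the cell cycle genes homology region (CHR), which is bound by the MuvB core of the DREAM complex in resting cells and by MuvB with B-Myb and Foxm1 in dividing ones. CCAAT boxes, bound by NF-Y, often lie upstream of it. The RefSeq promoter window on GRCm38.p6, from 250 bases before to 50 bases after the start of the transcript, was given for 36 members, and *Incenp*, *Smc4*, *Foxm1*, *Ccna2*, *Aurkb*, *Kif20a*, *Cdc25c* and *Tpx2* are named only. The CHR was searched as TTTGAA and its variant TTCGAA and the NF-Y box as CCAAT, each on both strands. TTTGAA was in the window of 27 of 36 members (75.0%), against 20.2% of 27025 genes with a window, and TTCGAA in 4 (11.1%), against 1.8%. CCAAT was in 28 (77.8%), against 41.1%. A CHR of either kind and a CCAAT box occurred together in 25 members (69.4%), against 8.6% of all genes. Matches also stood close to the start, with a CHR beginning within 50 bases of a listed start in 27 members (75.0%), against 6.1%. A match is a description of letters and not a measured binding site, and CCAAT matches of either strand count alike.

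The 80 bases before the start are printed for 5 members whose levels are given below, to show the layout of the motifs. Of the 36 members 7, the first 4 shown among them, hold TTTGAA with a CCAAT box upstream of it in these bases, and *Ccnb2* is shown as a member that does not. Each reads 5′ to 3′ on the strand of its gene, with CHR and CCAAT matches of either strand in capitals (TTCAAA and ATTGG are the reverse complements). *Top2a* lies on the minus strand at chr11:99024190-99024269, *Kif11* on the plus strand at chr19:37376302-37376381, *Cdk1* on the minus strand at chr10:69352913-69352992, *Cdc20* on the minus strand at chr4:118437344-118437423 and *Ccnb2* on the minus strand at chr9:70421555-70421634.
Top2a: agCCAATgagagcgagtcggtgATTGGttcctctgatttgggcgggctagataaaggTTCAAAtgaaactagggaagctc
Kif11: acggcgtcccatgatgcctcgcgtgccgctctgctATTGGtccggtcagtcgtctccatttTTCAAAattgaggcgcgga
Cdk1: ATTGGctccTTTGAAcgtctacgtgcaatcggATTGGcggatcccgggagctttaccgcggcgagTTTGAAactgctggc
Cdc20: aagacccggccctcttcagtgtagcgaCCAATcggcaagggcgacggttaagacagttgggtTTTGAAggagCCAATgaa
Ccnb2: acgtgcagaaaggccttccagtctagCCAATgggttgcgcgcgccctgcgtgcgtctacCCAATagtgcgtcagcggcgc
In *Top2a* the CHR nearest the start begins 23 bases before it and the next CCAAT box upstream begins 35 bases further on. The same spacing was 35 bases in *Cdc20*, 33 bases in *Cdk1* and 26 bases in *Kif11*. In *Ccnb2* these bases hold CCAAT boxes alone, and its CHR matches lie elsewhere in the window.

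**Figure D3:**
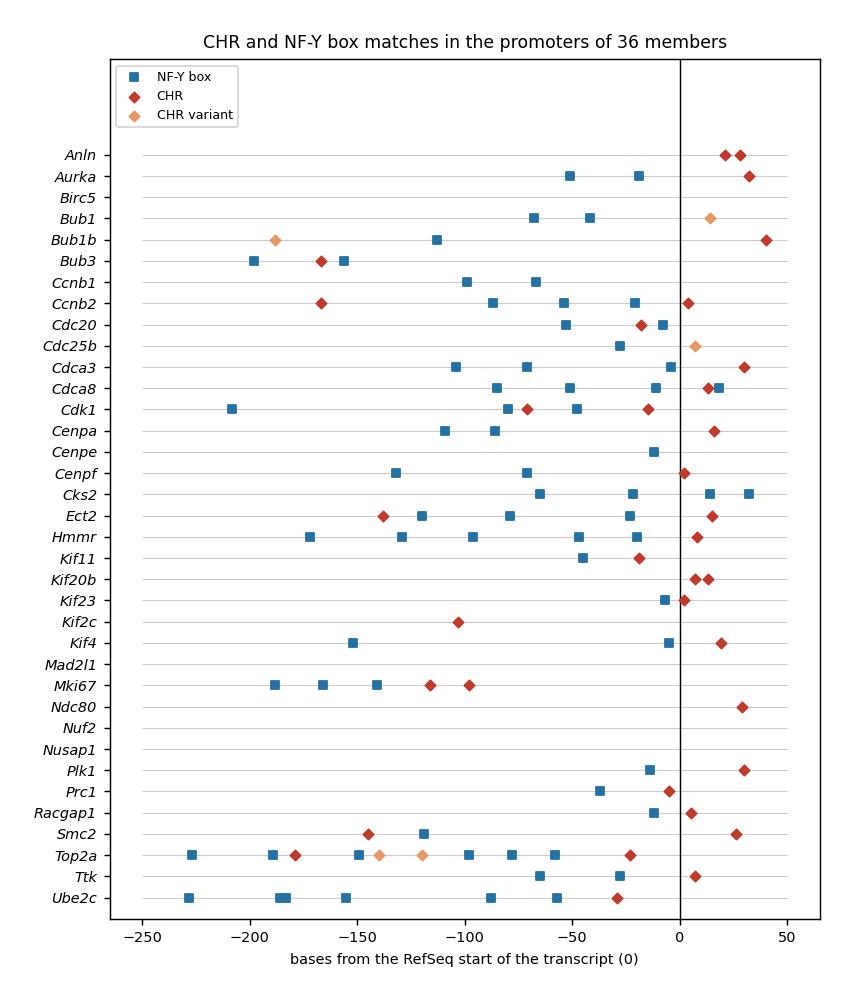
Position of CHR matches (TTTGAA, and the variant TTCGAA in a lighter shade) and NF-Y boxes (CCAAT) in the promoter window of 36 members, in bases from the RefSeq start; for members with more than 1 start the first listed is drawn. CHR matches gather around the start, with 27 members holding one within 50 bases of a listed start, *Bub3* only at one that is not drawn.

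Of the 8 genes that control entry into mitosis, 4 had a fold change below 0 and 4 one above 0, and the median on the log2 scale was 0.00032. *Cdk1* (ENSMUSG00000019942, chromosome 10 from 69335146 to 69352938 in GRCm38, minus strand), the kinase that starts mitosis, was at 32.7 and 28.0 CPM in shCtrl A and B and at 30.7 and 39.3 CPM in sh*Mettl14* A and B. The sh*Mettl14* B library was the highest, and the groups overlapped (log2 fold change 0.20, standard error 0.23). *Ccnb1* (ENSMUSG00000041431, chromosome 13 from 100778650 to 100786570), the cyclin B1 that activates it, had 18.5 and 24.7 CPM in shCtrl A and B and 17.6 and 33.1 CPM in sh*Mettl14* A and B. Its log2 ratios were −0.07 in A and 0.42 in B, and its fold change was 0.23 (standard error 0.37). The closely related cyclin gene *Ccnb2* ran from 14.3 CPM in sh*Mettl14* A to 22.9 CPM in sh*Mettl14* B, with both shCtrl libraries between them. *Ccna2* (ENSMUSG00000027715, chromosome 3 from 36564865 to 36572150), cyclin A2 of S phase and early mitosis, was at 17 and 30.8 CPM in shCtrl A and B and at 14.4 and 25.5 CPM in sh*Mettl14* A and B. It was lower in both letters, by log2 ratios of −0.24 and −0.27, and the difference between letters was larger (fold change −0.26, standard error 0.43). Of its exon bases 12.5% overlap a gene on the other strand, and whether the counting used strand is not stated. The phosphatases that release Cdk1 from inhibition stood apart in level, with *Cdc25b* at 10.4 to 15.7 CPM and *Cdc25c* at 3.08 to 5.35 CPM, the lowest of all members, with 12.7% of its exon bases under a gene on the other strand. *Cks2*, a small subunit that docks on Cdk1, was at 18.2 to 22.9 CPM. *Foxm1*, a transcription factor that drives many of the other members, was at 18.8 and 36.9 CPM in shCtrl A and B and at 18.7 and 31.1 CPM in sh*Mettl14* A and B.

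All 6 mitotic kinases and passenger complex genes had a fold change below 0, with a median of −0.15. Within letter A the log2 ratios ran from −0.36 to −0.20, and within letter B from −0.40 to 0.09. *Aurka* (ENSMUSG00000027496, chromosome 2 from 172356190 to 172370535), the Aurora A kinase of the spindle poles, was at 12.4 and 23.1 CPM in shCtrl A and B and at 10.5 and 19.7 CPM in sh*Mettl14* A and B. *Birc5* (ENSMUSG00000017716, chromosome 11 from 117849251 to 117855743), which encodes survivin of the chromosomal passenger complex, was at 13.7 and 23.9 CPM in shCtrl A and B and at 10.8 and 18.1 CPM in sh*Mettl14* A and B. Both were lower in both letters by like ratios, −0.24 and −0.23 for *Aurka* and −0.33 and −0.40 for *Birc5*. Their fold changes, −0.23 (standard error 0.45) and −0.38 (standard error 0.41), did not exceed the standard errors. *Plk1* (ENSMUSG00000030867, chromosome 7 from 122159439 to 122169873), the Polo kinase, was at 14.8 and 20.7 CPM in shCtrl A and B and at 11.5 and 19.9 CPM in sh*Mettl14* A and B. Its ratio was −0.36 in A and −0.06 in B. The other members of the passenger complex, the kinase gene *Aurkb* with *Incenp* and *Cdca8*, were lower in A and slightly higher in B, with ratios in B of 0.09, 0.04 and 0.03.

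The checkpoint and anaphase genes held the 3 members whose groups did not overlap under TMM scaling. *Cdca3* (ENSMUSG00000023505, chromosome 6 from 124829547 to 124833701), whose product serves a ubiquitin ligase that degrades the mitotic inhibitor Wee1, was at 14.4 and 22.6 CPM in shCtrl A and B and at 9.31 and 12.8 CPM in sh*Mettl14* A and B. The log2 ratios were −0.63 in A and −0.82 in B, the lowest of any member in either letter. Its fold change of −0.74 (standard error 0.34, 95% interval −1.61 to 0.13) had an unadjusted edgeR p of 0.079 and an adjusted p of 1. Over all alternatives its unadjusted p lay between 0.0018 and 0.33 and its adjusted p between 0.23 and 1. *Cdc20* (ENSMUSG00000006398, chromosome 4 from 118432901 to 118437352), the activator of the anaphase-promoting complex, was at 36.8 and 39.1 CPM in shCtrl A and B and at 29.1 and 36.7 CPM in sh*Mettl14* A and B. The gap between the groups was 36.7 against 36.8 CPM, so they barely parted. *Bub3* (ENSMUSG00000066979, chromosome 7 from 131560222 to 131571895), a checkpoint protein, was at 84.3 and 84.7 CPM in shCtrl A and B and at 68.9 and 82.6 CPM in sh*Mettl14* A and B. It also differed least between the letters of shCtrl, by 0.0068 on the log2 scale. *Ube2c* (ENSMUSG00000001403, chromosome 2 from 164769898 to 164778822), the ubiquitin-conjugating enzyme of the same complex, was at 24.4 and 30.4 CPM in shCtrl A and B and at 18.1 and 25.9 CPM in sh*Mettl14* A and B. Of its exon bases 22.8% overlap a gene on the other strand.

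The other checkpoint genes were *Bub1b*, *Bub1*, *Ttk* and *Mad2l1*, and the groups overlapped for each of them. *Bub1b* (ENSMUSG00000040084, chromosome 2 from 118598211 to 118641591), which encodes BubR1, was at 11.5 and 19.3 CPM in shCtrl A and B and at 12.7 and 22.3 CPM in sh*Mettl14* A and B. The kinase genes *Bub1* and *Ttk* were at 8.88 to 16.6 CPM and at 4.84 to 9.30 CPM. The log2 ratios of these 3 genes in A and B lay between 0.06 and 0.21, and the fold change of *Bub1b* was 0.19 (standard error 0.41). *Mad2l1*, which encodes the Mad2 protein that binds Cdc20, was at 15.9 and 29.5 CPM in shCtrl A and B and at 17.1 and 23.8 CPM in sh*Mettl14* A and B, with ratios of opposite sign in the letters.

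Among the 5 centromere and kinetochore genes the spread between shCtrl libraries was wide. *Cenpf* (ENSMUSG00000026605, chromosome 1 from 189640606 to 189688086), a large kinetochore protein, was at 14.6 and 38.7 CPM in shCtrl A and B and at 16.2 and 28.3 CPM in sh*Mettl14* A and B. The ratio was 0.15 in A and −0.45 in B (fold change −0.26, standard error 0.54). *Cenpe*, the kinetochore motor, had the same pattern, with 19.2 and 49.8 CPM in shCtrl A and B and 23.2 and 42.9 CPM in sh*Mettl14* A and B. *Nuf2* and *Ndc80*, whose products together grip the microtubule end, were at 11 to 21.5 CPM and 6.27 to 12.7 CPM. Both genes were lower in both letters, but *Nuf2* in A by a log2 ratio of only −0.01. *Cenpa*, the histone H3 variant of centromeres, was at 20.0 and 17.8 CPM in shCtrl A and B and at 19.3 and 23.4 CPM in sh*Mettl14* A and B. It and *Cdk1* were the 2 members with a lower level in shCtrl B than in shCtrl A.

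The 6 spindle motor and binder genes had a median log2 fold change of −0.17, with 4 lower in both letters. *Kif11* (ENSMUSG00000012443, chromosome 19 from 37376403 to 37421859), the motor that pushes the spindle poles apart, was at 15.2 and 26.2 CPM in shCtrl A and B and at 14.7 and 31.6 CPM in sh*Mettl14* A and B. *Tpx2* (ENSMUSG00000027469, chromosome 2 from 152847964 to 152895321), which activates Aurora A on the spindle, was at 48.0 and 95.3 CPM in shCtrl A and B and at 39.8 and 71.3 CPM in sh*Mettl14* A and B. *Tpx2* was lower in both letters and *Kif11* went opposite ways, with fold changes of −0.37 (standard error 0.45) and 0.16 (standard error 0.47). The other genes lower in both letters were *Kif2c*, a microtubule depolymerase, *Kif4*, a chromosome-arm motor, and *Nusap1*, a microtubule bundler, with ratios from −0.34 to −0.14. *Hmmr*, a spindle pole protein and hyaluronan receptor, was at 17.1 to 37.2 CPM with a ratio of 0.22 in A and −0.09 in B. Of the exon bases of *Kif4* 15.1% overlap a gene on the other strand.

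Of the 7 cytokinesis genes 3 were lower in both letters. *Racgap1* (ENSMUSG00000023015, chromosome 15 from 99620496 to 99651656), a subunit of centralspindlin, was at 26 and 44.6 CPM in shCtrl A and B and at 22.4 and 36.6 CPM in sh*Mettl14* A and B. Its motor partner *Kif23* and *Kif20a*, a motor of the midzone, were lower in both letters as well, with ratios from −0.32 to −0.11. For *Kif20a* 29.3% of the exon bases overlap a gene on the other strand, the largest share among the members. *Kif20b* (ENSMUSG00000024795, chromosome 19 from 34922361 to 34975745), a motor of abscission, was at 10.5 and 30.4 CPM in shCtrl A and B and at 13.2 and 22.9 CPM in sh*Mettl14* A and B. The sh*Mettl14* libraries thus lay between the shCtrl libraries, with ratios of 0.33 in A and −0.41 in B. *Anln*, the anillin of the contractile ring, had the same signs at a higher level, from 59.3 to 114 CPM. *Ect2*, the exchange factor that activates RhoA, hardly differed between hairpins, with ratios of 0.0052 in A and 0.011 in B. *Prc1*, the bundler of midzone microtubules, was at 29.4 to 55.5 CPM with a fold change of −0.0090, and 11.1% of its exon bases overlap a gene on the other strand.

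The 4 chromosome genes included *Mki67*, the member with the widest difference between the shCtrl libraries. *Mki67* (ENSMUSG00000031004, chromosome 7 from 135689784 to 135716361), the proliferation marker Ki-67 that coats mitotic chromosomes, was at 50.1 and 149 CPM in shCtrl A and B and at 54.0 and 101 CPM in sh*Mettl14* A and B. *Top2a* (ENSMUSG00000020914, chromosome 11 from 98992943 to 99024189), the topoisomerase that untangles sister chromatids, was at 63.1 and 96.5 CPM in shCtrl A and B and at 54.4 and 113 CPM in sh*Mettl14* A and B. These 2 proliferation markers went opposite ways in both letters, with ratios of 0.11 and −0.56 for *Mki67* and −0.22 and 0.23 for *Top2a*. *Smc2* (ENSMUSG00000028312, chromosome 4 from 52439243 to 52488260), a core subunit of condensin, was at 21.6 and 51.3 CPM in shCtrl A and B and at 29.1 and 48.3 CPM in sh*Mettl14* A and B. Its partner *Smc4* was at 46.3 and 74.5 CPM in shCtrl A and B and at 44.6 and 68.3 CPM in sh*Mettl14* A and B. The fold changes of the 4 genes lay between −0.36 and 0.09, each below its standard error. Per kilobase of transcript, the mean level over the 4 libraries ran from 2.13 CPM per kilobase for *Cdc25c* to 36.1 for *Bub3*, with *Cks2* at 30.3 and *Ube2c* at 25.6 next below it.

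The largest difference among the members was between the letters and not between the hairpins. Both B libraries were above both A libraries for 39 of 44 members (88.6%), against 27.2% of all genes. The exceptions were *Cdk1*, *Bub3*, *Cdc20*, *Cdca3* and *Cenpa*. Both B libraries were below both A libraries for 0 members, against 5439 of 18916 genes. Within shCtrl the median log2 difference of B minus A was 0.80, which is 1.74-fold, and within sh*Mettl14* it was 0.79, or 1.73-fold, beside −0.013 and −0.0049 over all genes. The B library was the higher for 42 members within shCtrl and for 44 within sh*Mettl14*. The span was wider within shCtrl, from −0.22 for *Cdk1* to 1.57 for *Mki67*, than within sh*Mettl14*, from 0.26 for *Bub3* to 1.12 for *Kif23*. Members took 0.0957% and 0.0949% of all counts in shCtrl A and sh*Mettl14* A and 0.155% and 0.156% in shCtrl B and sh*Mettl14* B. What the letters stand for is not given in the sources used here, and the difference of the members between letters was not tested.

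Several other gene lists differed between the letters too. Over all genes, 27.2% had both B libraries above both A libraries, and 5439 of 18916 had both below. Among 47 other mitosis genes 36 had both B libraries above both A libraries, with median differences of 0.61 within each hairpin. The share was 16 of 30 for S phase genes (medians 0.28 in shCtrl and 0.27 in sh*Mettl14*), 16 of 27 for spindle and anaphase-promoting complex genes that are made throughout the cell cycle, and 7 of 12 for DREAM and MuvB subunits. Of 15 CDK inhibitors and arrest genes 4 (26.7%) were above, near the share of all genes, and 7 below, with medians of −0.52 and −0.09. Cell type markers moved with the letters as well. Of 8 endothelial markers 7 had both B libraries above both A libraries and 1 had both below, with medians of 0.80 in shCtrl and 0.26 in sh*Mettl14*. Of 8 VSMC markers 1 was above and 4 were below, with medians of −0.58 and −0.16. Of 5 leukocyte markers tested 0 were above and 2 below, with medians of −0.94 and 0.10. Of 8 adventitial fibroblast markers 2 were above and 3 below, with medians of −0.54 and 0.20. Their part in the level of the mitosis genes was not tested.

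**Figure D4:**
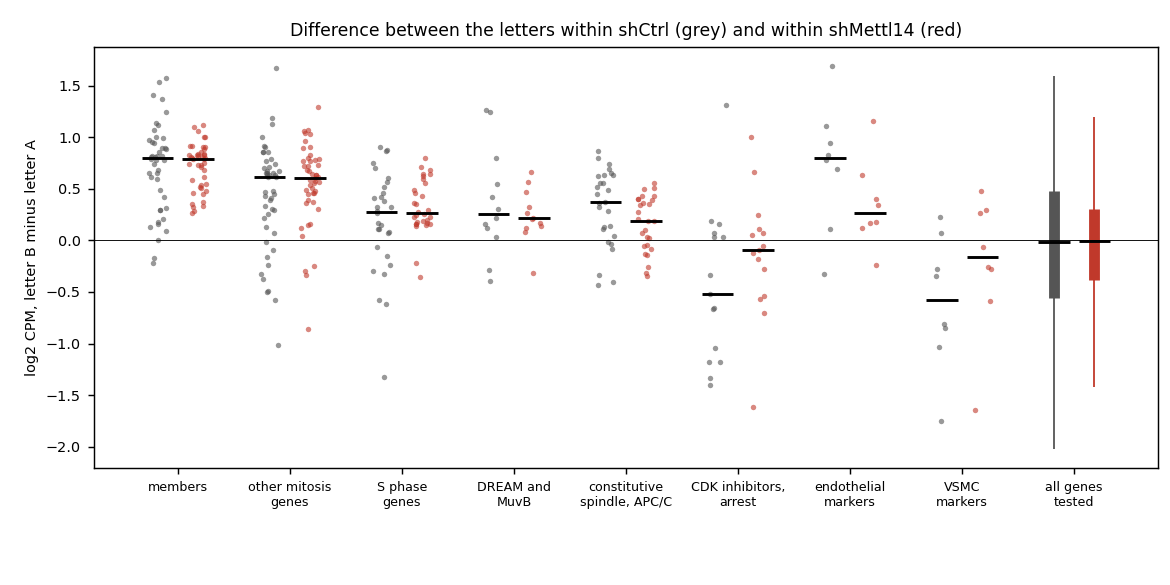
Difference of log2 CPM between letter B and letter A for each gene of each list, within shCtrl (grey) and within sh*Mettl14* (red), with black lines at the medians and, for all genes, thick bars from percentile 25 to 75 and thin bars from percentile 5 to 95. The 44 members lie mostly above 0, with medians of 0.80 and 0.79, while all genes centre at 0.

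The difference between hairpins within letter A went with transcript length. Across the 44 members the log2 ratio in A had a Spearman correlation of 0.69 with the length of the transcript, whereas the ratio in B had one of −0.27. Over 14354 coding genes tested the same correlations were 0.36 and 0.022. Both are across genes of the same 4 libraries and are no independent replicates. The 22 members with shorter transcripts, of 692 to 3008 bases, had a median ratio of −0.24 in A, with 21 below 0, and of −0.05 in B, with 12 below 0. The 22 with longer transcripts, of 3052 to 11130 bases, had medians of 0.04 in A, with 10 below 0, and −0.20 in B, with 16 below 0. *Cenpf*, *Mki67*, *Cenpe*, *Kif20b* and *Smc2*, all long, were higher with sh*Mettl14* in A and lower in B. Length also went with the difference of the letters, with a correlation of 0.68 in shCtrl and 0.38 in sh*Mettl14* (0.26 and 0.16 over coding genes), and it shares the shCtrl A library with the ratio in A. The share of G and C in the transcript had a correlation of −0.64 with the ratio in A and of −0.54 with length (−0.25 and −0.24 over coding genes). With the difference of the letters in shCtrl its correlation was −0.51 across members and −0.42 over coding genes. The parts of length and base composition were not tested separately.

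**Figure D5:**
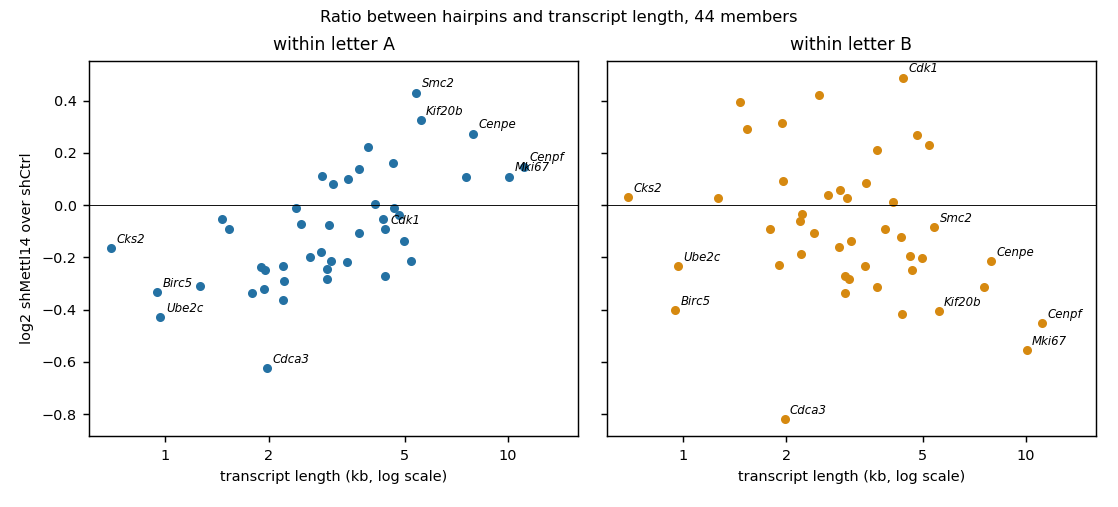
Log2 ratio of sh*Mettl14* over shCtrl within letter A (left) and letter B (right) against transcript length in kilobases (log scale), 1 point per member. In A the points climb with length (Spearman 0.69 across 44 genes), and in B they do not (−0.27).

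Genes of the neighbouring steps were compared with the same edgeR fit, and 0 of them had an adjusted p under 0.05. That fit called 0% of all genes tested and did not call *Mettl14*, so this count does not show that they were unchanged. Of the 47 other mitosis genes 23 were lower and 24 higher, the median log2 fold change was 0.0020, and 0 were at an unadjusted p under 0.05. Those nearest the threshold were *Stmn1*, a tubulin-binding protein (−0.44, standard error 0.33), *Tacc3*, a spindle stabilizer (−0.43, standard error 0.32), *Spdl1*, a dynein adaptor (−0.55, standard error 0.46), and *Kifc1*, a minus-end motor (0.27, standard error 0.26). Of 12 DREAM and MuvB subunits 7 were lower and 5 higher (median −0.06), with *Lin37* at −0.59 (standard error 0.25) and the repressor gene *E2f4* at −0.48 (standard error 0.23). Of 30 S phase genes 23 were lower, with a median of −0.18, and 19 were lower in both letters, against 27.7% of all genes. One of these, *Mcm3*, a subunit of the replicative helicase, had an unadjusted p of 0.040. It was at 32.7 and 34.5 CPM in shCtrl A and B and at 21.5 and 24.1 CPM in sh*Mettl14* A and B (fold change −0.56, standard error 0.20, adjusted p = 1). *Uhrf1*, which guides maintenance methylation of DNA, was next at −0.55 (standard error 0.28). Of the 27 spindle and anaphase-promoting complex genes made throughout the cycle 21 were lower (median −0.14, 0 at an unadjusted p under 0.05). In both letters 15 of the 27 were lower, and *Mad2l2* had the lowest p, at −0.44 (standard error 0.28). Of the 15 CDK inhibitors and arrest genes 9 were higher (median 0.07, 0 at that level), *Ccng1*, a p53 target, with the lowest p at a fold change of 0.34 (standard error 0.18).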

How the data were processed

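Poly-A–enriched RNA of 2 shCtrl and 2 sh*Mettl14* libraries was sequenced. STAR mapping to mm10 (GRCm38) and featureCounts gave the raw counts per gene that the authors deposited, without normalization. Tool versions and the strand setting of the counting are not given in the sources used here. Counts were compared on the whole table with edgeR 4.0.16 in R 4.3.3 (TMM, filterByExpr, robust quasi-likelihood fit, no block, two-sided, Benjamini-Hochberg over 18916 genes). Log2 CPM and within-letter ratios used a prior count of 2, and the standard error is the absolute fold change over the square root of F. DESeq2 1.42.0 was an alternative and the test the study names, and its calls are given beside edgeR's. Gene places, lengths and overlaps came from GENCODE M21 on GRCm38, promoters from RefSeq on GRCm38.p6, with Python 3.11.15.

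The members and lists were chosen with earlier results of these data known. All 44 members and *Mettl14* were named, with the genes of lowest p of each other list. Of the cell type lists, the markers with the highest and lowest level in a library and some others were named. The lists were DREAM and MuvB, other mitosis genes (47 of 50 symbols found), constitutive spindle and APC/C genes, S phase genes, CDK inhibitors and arrest genes, and VSMC, endothelial, leukocyte and adventitial fibroblast markers. Alternatives were DESeq2, RLE and upper-quartile scaling, no filter beyond 1 count, at least 10 counts in every library, the letter as a block, and each library left out.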

Additional observations from a re-analysis of the deposited data

How the results depend on the processing

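The number of members with an adjusted p under 0.05 was 0 under every alternative. *Cdca3* was the 1 member lower at an unadjusted edgeR p under 0.05 without the filter (0.043), where 0.968% of all genes were. It was also the 1 such member with the replicate block (0.0018), where 5.55% of all genes were. In edgeR without a block its p was 0.079. With 1 library left out its log2 fold change ran from −1 to −0.38. The median log2 fold change over members was −0.086 with upper-quartile scaling, −0.093 without the filter, −0.097 with at least 10 counts in every library and −0.085 with the replicate block, and ran from −0.51 to 0.28 with 1 library left out. With upper-quartile scaling 1 member had both sh*Mettl14* libraries below both shCtrl libraries. The median letter difference, 0.778 over both hairpins, was 0.815 with upper-quartile scaling and 0.761 without the filter. The count of members higher in both B libraries ran from 39 to 41 in alternatives chosen after seeing the data. The cause of these shifts was not tested.

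With 1 library left out, where the lone library is assumed to vary like the other group, the sign turned for 38 members, among them *Ccna2* (−0.73 to 0.23), *Ccnb1* (−0.29 to 0.62), *Aurka* (−0.75 to 0.28), *Plk1* (−0.62 to 0.17), *Birc5* (−0.79 to 0.078), *Bub1b* (−0.27 to 0.60), *Cenpf* (−0.80 to 0.60), *Kif11* (−0.48 to 0.61), *Tpx2* (−0.84 to 0.21), *Kif20b* (−0.75 to 0.78), *Racgap1* (−0.65 to 0.18), *Mki67* (−0.93 to 0.63), *Top2a* (−0.55 to 0.51) and *Smc2* (−0.40 to 0.84).

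Nothing says that a letter marks a shared culture. Deviations of same-letter libraries had a correlation of 0.578 across all genes and 0.654 across members, but 2 pairs do not settle the pairing. The block lowered the common dispersion from 0.178 to 0.0418. With the replicate block 0 members had an adjusted p under 0.05 and 1, *Cdca3* (adjusted p = 0.23 from edgeR), was lower at an unadjusted p under 0.05, where 5.55% of all genes were. The block called 9 genes in all, *Mettl14* among them (adjusted p = 0.0039 from edgeR). The members had 366 to 16086 counts per library.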
